A study of Mus musculus with 24 samples.

Results

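The creatine kinases Ckm, Ckb, Ckmt1 and Ckmt2, the adenylate kinase Ak1 and the AMP deaminases Ampd1 and Ampd3 were taken by gene name from a table of 28109 genes, and each of these 7 genes was found there once. Their messenger RNA was followed by RNA-seq in 24 libraries of differentiating mouse muscle cells. C2C12 cells are an established myoblast line from the C3H strain, and PMs are primary myoblasts, wild type and labelled C57/B6, taken from young mice and grown in culture. Each was transfected with a control siRNA against luciferase (siControl) or with pools of siRNAs against Tead1 and Tead4 together (siTead1/4), which encode TEAD-family transcription factors. Cells were harvested at day 0, before the change to differentiation medium, and at days 3 and 6 after it, with 2 biological replicates in each of the 12 groups. All groups were thus transfected cells, the silencing was transient, and the control had no untransfected counterpart among the libraries used here. Cell type, mouse strain and type of culture change together and cannot be told apart.

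Creatine kinases move a phosphate group between ATP and creatine, which lets a contracting muscle cell rebuild ATP from stored phosphocreatine within moments. Cytosolic isoforms work near the sites of ATP use and mitochondrial isoforms near the sites of ATP production. Adenylate kinase recovers ATP from ADP and leaves AMP, and AMP deaminase converts that AMP to IMP in the first step of the purine nucleotide cycle. During muscle maturation the brain-type cytosolic creatine kinase is known to give way to the muscle type.

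Among the creatine kinases, Ckm encodes the cytosolic muscle isoform (ENSMUSG00000030399, mm9 chr7:19996443-20006932, plus strand, 8 exons) and Ckb the cytosolic brain isoform (ENSMUSG00000001270, chr12:112907566-112910549, minus strand, 8 exons). Ckmt1 encodes the ubiquitous mitochondrial isoform (ENSMUSG00000000308, chr2:121183450-121189473, plus strand) and Ckmt2 the sarcomeric mitochondrial isoform of striated muscle (ENSMUSG00000021622, chr13:91992992-92016490, minus strand, 10 exons). Ak1 encodes the cytosolic adenylate kinase of muscle (ENSMUSG00000026817, chr2:32477278-32502325, plus strand). Ampd1 encodes the AMP deaminase of skeletal muscle (ENSMUSG00000070385, chr3:102877937-102903637, plus strand) and Ampd3 the isoform first known from red blood cells (ENSMUSG00000005686, chr7:117911720-117955919, plus strand). The counts cover whole genes, so transcripts of 1 gene were not separated.

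The library kit did not keep the strand, and some exons overlap those of other genes. Of the 1415 exon bases of Ckm, 451 (31.9%) lie over A930016O22Rik on the opposite strand, which itself held 0 to 206 counts per library, at most 0.428% of the Ckm count. Ak1 shares 124 exon bases (4.44%) with Eng on the same strand, which held 0.897% to 5.17% of the Ak1 count. Ampd3 shares 174 exon bases with B430319F04Rik, which held 1 to 25 counts, and 195 (3.48%) with Gm15548, both on the opposite strand. Ckmt1 shares 10 exon bases with Strc, which held 0 to 11 counts. In libraries with more than 3 Ckmt1 counts, the Strc count reached 160% of the Ckmt1 count. Reads from these stretches cannot be assigned to 1 gene of each pair. The overlap settings of the counting are not given in the sources used here. If such reads were left out of both genes, the count of the neighbour would not measure them. The part of these reads in the values below was not tested.

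The promoters of Ckm, Ckb and Ckmt2 are printed because these genes had the largest rise in C2C12 cells, a level that was not called different between PMs and C2C12 cells at days 3 and 6, and a call after siTead1/4 in both cell types, in that order. Ampd3 was not called different between the cell types at those days either, and its promoters are not printed. RefSeq held promoters for 6 of the 7 genes, 12 in all, each running from 250 bases before to 50 bases after a transcript start. Both strands were searched for the MCAT core CATTCC, which is the letter pattern TEAD factors recognise, and for the E-box CANNTG, the pattern of myogenic bHLH factors. In these 12 promoters no MCAT match overlapped an E-box match. Capitals mark the matches in the sequences below, which are on the gene's strand of build GRCm38.p6.
Ckm (chr7:19410844-19411143, plus strand): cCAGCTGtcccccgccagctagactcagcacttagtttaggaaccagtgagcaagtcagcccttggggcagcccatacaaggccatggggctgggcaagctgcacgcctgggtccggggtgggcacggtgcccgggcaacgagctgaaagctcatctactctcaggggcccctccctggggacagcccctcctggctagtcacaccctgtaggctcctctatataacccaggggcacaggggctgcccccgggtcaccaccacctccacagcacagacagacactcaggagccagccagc
Ckb (chr12:111672289-111672588, minus strand): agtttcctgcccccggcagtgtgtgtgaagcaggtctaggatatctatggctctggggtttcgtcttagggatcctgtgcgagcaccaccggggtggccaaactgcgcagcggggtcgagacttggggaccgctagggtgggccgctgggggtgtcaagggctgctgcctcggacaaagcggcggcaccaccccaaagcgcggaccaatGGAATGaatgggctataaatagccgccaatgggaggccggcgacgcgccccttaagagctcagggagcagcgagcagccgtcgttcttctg
Ckmt2 (chr13:91876836-91877135, minus strand): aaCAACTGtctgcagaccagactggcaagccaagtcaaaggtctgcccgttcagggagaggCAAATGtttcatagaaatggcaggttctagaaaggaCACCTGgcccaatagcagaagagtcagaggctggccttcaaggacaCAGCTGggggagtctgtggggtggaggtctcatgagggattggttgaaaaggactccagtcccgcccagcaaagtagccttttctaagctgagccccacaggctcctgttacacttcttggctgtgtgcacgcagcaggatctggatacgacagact

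The Ckm window held 1 E-box, at position -249 from the start, and no MCAT core. In the Ckb window the MCAT core was read as GGAATG at position -41, and there was no E-box. The Ckmt2 window held 4 E-boxes, at positions -248, -189, -153 and -107, and no MCAT core. Over the 12 promoters of the 6 genes, 2 held the MCAT core (1 of Ckb and 1 of Ckmt1) and 9 held an E-box. Among all 32851 promoters of the same length in the table, 14.66% held the MCAT core and 72.31% an E-box. These matches describe letters in the windows and were not tied to any binding in these libraries.

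Total counts on genes were 25453830 to 52784510 per library in C2C12 cells and 32571583 to 51110723 in PMs. Tead4, a target of the siRNAs, was lower in both cell types after siTead1/4, with log2 fold changes of -2.21, -1.76 and -1.28 at days 0, 3 and 6 in C2C12 cells (called at days 0 and 3) and of -2.36, -2.58 and -1.75 in PMs (called at each day). Tead1, the other target, was called lower in PMs at days 0 and 3 (log2 fold changes -1.44 and -1.68) and at no day in C2C12 cells, where its log2 fold changes were -2.46, -1.09 and -0.52 and its siTead1/4 level at day 6 (70.6 and 77.0 CPM) overlapped the control (76.0 and 136 CPM). Replicates of a group differed over all genes with an SD (log2) of 0.629 to 0.737 in the siTead1/4 groups of C2C12 cells and 0.417 to 0.570 in the other groups. The skeletal muscle markers Myog, Acta1, Mylpf and Tnnt3 were present in both cell types, and the summed level of 8 muscle markers spanned 979 to 18031 CPM in siControl C2C12 cells and 7827 to 31826 CPM in siControl PMs. Summed markers of macrophages reached at most 2.28 CPM and those of endothelial cells 13.8 CPM, while 5 fibroblast markers summed to 54.5 to 438 CPM in C2C12 cells and 67.6 to 3000 CPM in PMs. Summed markers of Schwann cells reached at most 26.2 CPM, of adipocytes 47.1 CPM and of neurons 233 CPM, and those of smooth muscle spanned 772 to 4245 CPM. Of the neuron markers Tubb3 alone reached 233 CPM, and Snap25, Syp and Rbfox3 reached at most 1.72 CPM in any library. Among adipocyte markers Pparg reached 46.9 CPM and the others at most 1.65 CPM. Among smooth muscle markers Acta2 reached 4103 CPM and the others at most 332 CPM. In PMs Col1a1 reached 2840 CPM and the other fibroblast markers at most 84.0 CPM. In these bulk libraries a change in a gene's level cannot be told apart from a change in the share of cells that express it.

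Levels are given as CPM, the count scaled to a common library size, for 1 gene across groups, and as RPKM, the CPM divided by gene length in kilobases, where genes are compared. The length is that of the deposited table, whose definition is not given in the sources used here. It equals the annotated exon bases for Ckm, Ckb, Ckmt2 and Ak1 and is shorter for Ampd1 (2336 against 2921), Ampd3 (4756 against 5605) and Ckmt1 (2118 against 2496), which raises their RPKM and the shares built on it. Values are means ± SD of 2 replicates. Ckm was the most abundant of the 7 genes in siControl PMs at day 3, at 1362 ± 304 RPKM, and was followed by Ak1 at 340 ± 63.6, Ckb at 179 ± 36.1, Ckmt2 at 114 ± 26.2, Ampd1 at 49.5 ± 8.54 and Ampd3 at 10.0 ± 0.527 RPKM. In siControl C2C12 cells at the same day Ckm (274 ± 1.05 RPKM) again stood first, Ckb (178 ± 13.96) next and then Ak1 (100.3 ± 5.12), while Ampd3 was at 5.90 ± 0.379, Ampd1 at 1.46 ± 0.403 and Ckmt2 at 0.945 ± 0.123 RPKM. Ckmt1 was barely detected, with at most 35 counts in any library. Together the 7 genes took 0.0166% to 0.353% of a library's counts.

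**Figure D1:**
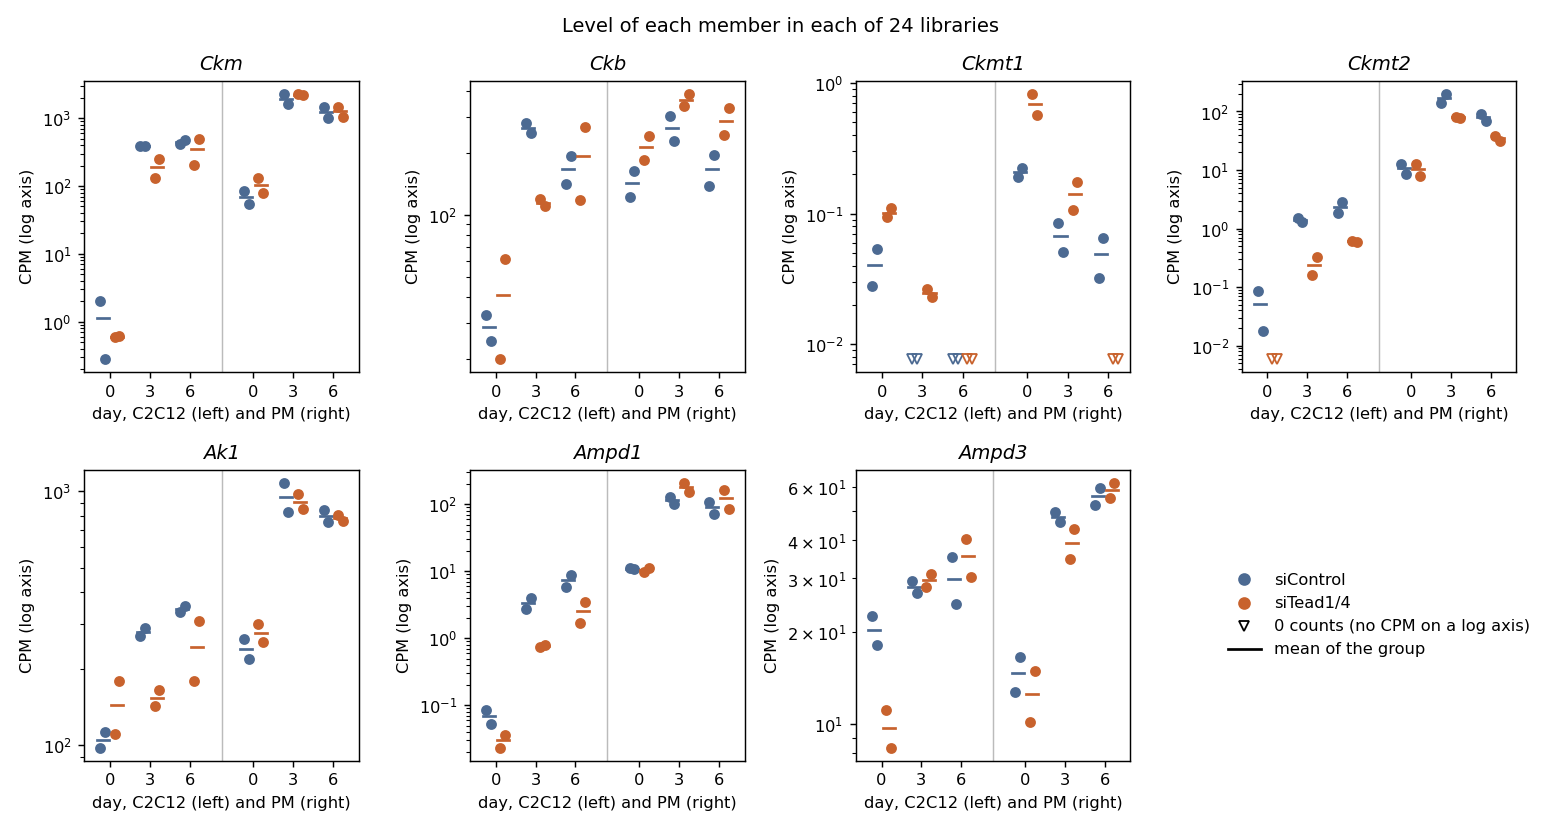
Level of each of the 7 genes in every library, in CPM on a log axis, by cell type, siRNA and day. The 2 points of a group are its replicates. Ckmt2 and Ampd1 are higher in every PM library than in every C2C12 library of the same day.

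When the 12 groups were ordered by mean level, 6 of the 11 neighbouring pairs overlapped for Ckm and 6 for Ckmt1. The number was 7 each for Ckb, Ak1 and Ampd3, 5 for Ampd1 and 2 for Ckmt2. Such overlaps were not counted over all genes, so these numbers are a description only. Ckmt2 ran from siControl PMs at day 3 (169 CPM) to siTead1/4 C2C12 cells at day 0, where no read was counted. Between them, siControl PMs at day 6 and siTead1/4 PMs at day 3 overlapped. The lowest Ckmt2 groups were set apart by few counts, with 3 and 1 in siControl C2C12 cells at day 0. For Ckm the upper end held siTead1/4 and siControl PMs at day 3, which overlapped, and the lower end both C2C12 groups at day 0, which also overlapped. Ampd1 was highest in siTead1/4 PMs at day 3 (182 CPM), with both PM groups at day 6 and siControl PMs at day 3 overlapping in sequence after it. Ckb and Ak1 were lowest in C2C12 cells at day 0, and Ampd3 was lowest in siTead1/4 C2C12 cells at day 0, where it overlapped siTead1/4 PMs but neither siControl group of that day.

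The course of siControl cells from day 0 shows how each enzyme's message moved during differentiation without silencing. In C2C12 cells Ckm, Ckb, Ckmt2, Ak1 and Ampd1 rose by day 3 and by day 6, and Ampd3 did not pass the test. In PMs Ckm, Ckmt2, Ak1, Ampd1 and Ampd3 rose, Ckmt1 fell, and Ckb was not called. Calls needed both an adjusted p under 0.05 (edgeR quasi-likelihood test, Benjamini-Hochberg over all tested genes) and a log2 fold change beyond 1 in either direction. Each p-value sets a difference against the spread between replicates. That spread was estimated from all groups of a fit, with 2 replicates each, and moderated over genes. In C2C12 cells 5 of 6 tested genes were called in each comparison with day 0, against 28.7% of all genes tested at day 3 and 31.1% at day 6. In PMs 6 of 7 were called in each, against 32.3% at day 3 and 35.5% at day 6.

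Ckm, the muscle isoform, stood at 2.00 and 0.284 CPM in siControl C2C12 cells at day 0, at 389 and 387 CPM at day 3 and at 412 and 482 CPM at day 6. The later libraries were all far above those of day 0, and the day 0 replicates lay far apart from each other. The log2 fold change was 8.44 ± 0.84 (SE) at day 3 (adjusted p = 4.98e-05) and 8.65 ± 0.85 at day 6 (adjusted p = 4.14e-05). It rested on the day 0 replicates, and at day 3 it was 10.37 without the first of them and 7.56 without the second. In PMs Ckm was already at 83.9 and 53.6 CPM at day 0 and reached 2231 and 1624 CPM at day 3 and 1477 and 1020 CPM at day 6. That rise was 4.75 ± 0.34 at day 3 (adjusted p = 1.45e-06) and 4.11 ± 0.33 at day 6 (adjusted p = 2.43e-06), and the fall between days 3 and 6 missed the test (-0.64 ± 0.29, adjusted p = 0.238).

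Ckb, the brain isoform, was at 32.5 and 24.5 CPM in siControl C2C12 cells at day 0, 278 and 249 CPM at day 3 and 141 and 194 CPM at day 6. Levels at both later days lay above those of day 0, by a log2 fold change of 3.17 ± 0.52 at day 3 (adjusted p = 0.00108) and 2.52 ± 0.51 at day 6 (adjusted p = 0.00303). In PMs it was at 122 and 164 CPM at day 0, 303 and 227 CPM at day 3 and 138 and 196 CPM at day 6, so that day 6 overlapped day 0. The day 3 difference had an adjusted p of 0.0107 but a log2 fold change of 0.83 ± 0.23, under the threshold, and the day 6 difference was 0.16 ± 0.23 (adjusted p = 0.576). Without the second day 0 replicate or the second day 3 replicate the day 3 difference of Ckb was called, at 1.06 and 1.04.

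Of the mitochondrial isoforms, Ckmt2 had 3 and 1 counts in siControl C2C12 cells at day 0, 65 and 63 at day 3, and 1.85 and 2.87 CPM at day 6. The day 0 counts were too few for a fitted fold change to be read, and the ratio of CPM was 32.0-fold at day 3 (95% counting interval 12.2 to 119) and 51.1-fold at day 6 (19.6 to 189). The fitted log2 fold change of Ckmt2 moved with the day 0 library left out, to 6.29 at day 3 without the first and 4.05 without the second, and to 6.97 and 4.72 at day 6. In PMs Ckmt2 was at 12.8 and 8.62 CPM at day 0, 142 and 197 CPM at day 3 and 91.3 and 69.3 CPM at day 6. It rose by 3.92 ± 0.29 on the log2 scale at day 3 (adjusted p = 1.5e-06) and fell by 1.09 ± 0.25 from day 3 to day 6 (adjusted p = 0.0348). That fall was the 1 call among the 7 genes between days 3 and 6 in PMs, where 2.8% of all genes were called, and it was lost on leaving out any 1 of its 4 libraries (adjusted p 0.0626 to 0.166). In the same comparison 4 of 5 fibroblast markers were called higher, with a median log2 fold change of 1.65 and a summed level of 1159 and 1046 CPM at day 3 and 3000 and 1896 CPM at day 6, and their part in the fall of Ckmt2 was not tested. Ckmt1 fell in PMs from 9 and 8 counts at day 0 to 3 and 2 at day 3 and 1 and 2 at day 6, a 3.09-fold lower level at day 3 (interval 1.10 to 10.7) and 4.22-fold lower at day 6 (interval 1.22 to 22.5), with adjusted p-values of 0.0333 and 0.0183 by edgeR. The intervals cover counting error only, and the Ckmt1 call at day 3 was lost on leaving out any 1 library (adjusted p 0.0683 to 0.175), while that at day 6 was lost without the second day 0 or the first day 6 replicate (adjusted p 0.0648 and 0.116).

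**Figure D2:**
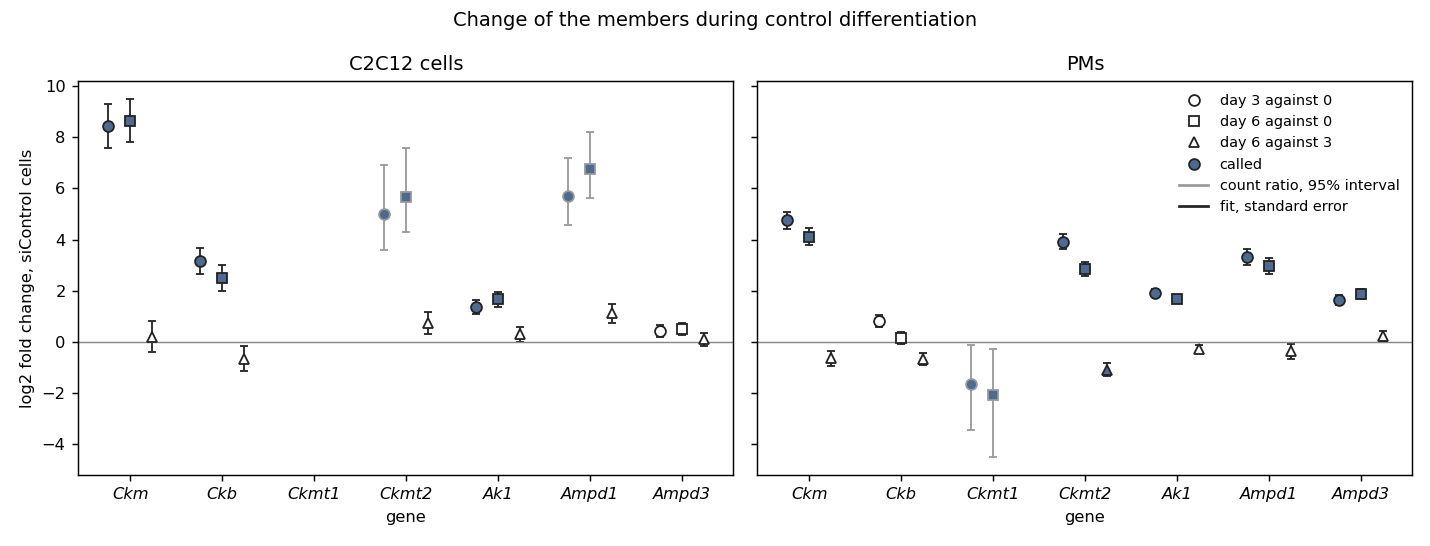
Log2 fold change of each gene in siControl cells at days 3 and 6 against day 0 and at day 6 against day 3, for C2C12 cells and PMs. Bars are 1 SE. Grey points are ratios of CPM with their 95% counting interval, drawn where only 1 group had at most 3 counts per library. Against day 0, Ckm, Ckmt2, Ak1 and Ampd1 lie above 1 in both cell types.

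Ak1, the cytosolic adenylate kinase, was at 98.1 and 113 CPM in siControl C2C12 cells at day 0, 270 and 290 CPM at day 3 and 333 and 354 CPM at day 6. The days did not overlap, and the log2 fold change was 1.37 ± 0.29 at day 3 (adjusted p = 0.00418) and 1.66 ± 0.29 at day 6 (adjusted p = 0.00134). In PMs it went from 261 and 219 CPM to 1075 and 824 CPM at day 3 and 843 and 756 CPM at day 6, a rise of 1.93 ± 0.16 and 1.67 ± 0.16.

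Ampd1, the muscle AMP deaminase, had 3 counts in each siControl C2C12 library at day 0, and was at 2.74 and 4.07 CPM at day 3 and 5.92 and 8.92 CPM at day 6. The ratio to day 0 was 52.8-fold at day 3 (95% counting interval 24.0 to 145) and 107-fold at day 6 (interval 49.0 to 294). In PMs Ampd1 rose from 11.3 and 10.7 CPM to 130 and 102 CPM at day 3 and 108 and 72.4 CPM at day 6, with log2 fold changes of 3.34 ± 0.31 (adjusted p = 7.54e-06) and 2.97 ± 0.31 (adjusted p = 1.37e-05). Its level in both siControl PM libraries at day 0 was above that in both siControl C2C12 libraries at day 6.

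Ampd3, the other deaminase, was at 22.7 and 18.1 CPM in siControl C2C12 cells at day 0, 29.3 and 26.8 CPM at day 3 and 35.2 and 24.7 CPM at day 6. It did not pass the test there (0.42 ± 0.24, adjusted p = 0.191 at day 3 and 0.52 ± 0.24, adjusted p = 0.108 at day 6). In PMs it rose from 12.7 and 16.6 CPM to 49.5 and 46.0 CPM and then 52.3 and 59.7 CPM, by 1.65 ± 0.20 (adjusted p = 4.51e-05) and 1.87 ± 0.20 (adjusted p = 1.71e-05). Between days 3 and 6 of siControl C2C12 cells 0 of the 6 tested genes were called by edgeR or by DESeq2, and 1, Ampd1, had an unadjusted p under 0.05 (1.12 ± 0.38, edgeR adjusted p = 1). In that comparison 0% of all genes were called by edgeR, 406 had an unadjusted p under 0.05, and DESeq2 called 19.

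Set against each other at the same day, siControl PMs held more of most of these messages than siControl C2C12 cells. Ckm, Ckmt2, Ak1 and Ampd1 were called higher in PMs at each of the 3 days, Ckb and Ckmt1 at day 0, and no gene was called lower. At day 0, 6 of the 7 genes were called, against 26.8% of all genes. At day 3 the count was 5 of 7, against 29.8%, and it includes Ckmt1, for which no fold is given because both groups held at most 3 counts per library. At day 6 it was 4 of 7, against 24.9%.

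The widest gaps belonged to Ckmt2 and Ampd1. At day 0 the ratio of PMs to C2C12 cells was 252-fold for Ckmt2 (95% counting interval 98.1 to 927) and 169-fold for Ampd1 (interval 77.4 to 462), against groups with 1 to 3 counts per library in C2C12 cells. The fitted day 0 difference of Ckmt2 was 9.27 on the log2 scale without the first C2C12 replicate and 7.02 without the second. At day 3 the log2 differences were 6.91 ± 0.37 for Ckmt2 (adjusted p = 1.55e-09) and 5.08 ± 0.38 for Ampd1 (adjusted p = 2.6e-08), and at day 6 they were 5.11 ± 0.34 (adjusted p = 1.93e-08) and 3.61 ± 0.35 (adjusted p = 6.35e-07). Both genes were thus closer between the cell types at each later day, a narrowing that was not itself tested. Ckm differed by 6.01 ± 0.66 at day 0 (adjusted p = 1.43e-06), 2.31 ± 0.52 at day 3 (adjusted p = 0.00177) and 1.48 ± 0.51 at day 6 (adjusted p = 0.0301). The day 0 value of Ckm was 7.88 without the first siControl C2C12 replicate and 5.07 without the second. The day 6 call of Ckm was lost without the first PM replicate (adjusted p = 0.167) or without the first or second C2C12 replicate (adjusted p = 0.153 and 0.0925).

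Ak1 was higher in PMs by 1.19 ± 0.24, 1.76 ± 0.24 and 1.22 ± 0.24 on the log2 scale at days 0, 3 and 6. Ckb differed at day 0 by 2.33 ± 0.43 (adjusted p = 0.000352), and its differences at days 3 and 6 were 0.0079 ± 0.41 and -0.0044 ± 0.41 (adjusted p = 0.991 and 0.995). The SE leaves room for a difference of nearly 1 on the log2 scale in either direction. Ampd3 was at -0.48 ± 0.23 at day 0 (adjusted p = 0.11), and at 0.77 ± 0.23 (adjusted p = 0.0107) and 0.90 ± 0.23 (adjusted p = 0.00492) at days 3 and 6, under the fold threshold. Ckmt1 at day 0 was 4.72-fold higher in PMs (interval 1.54 to 19.3), and its call was lost without the first C2C12 replicate. Of the 4 alternatives that kept all libraries, 2 made this call at day 0 and 3 made the Ckmt1 call at day 3.

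The central comparison asked which of these messages depend on Tead1 and Tead4. After siTead1/4 in C2C12 cells at day 3, Ckmt2 and Ampd1 fell. Ckm, Ckb and Ak1 had lower values that did not pass the test, and Ampd3 was level with the control. At day 3, 2 of 6 tested genes were called, both lower, against 1.27% of all genes called. Of the 6, 4 had an unadjusted p under 0.05, as did 2180 of all 15303 genes tested. The median log2 fold change was -1.15 over the 6 genes and 0.0064 over all genes tested.

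Ckmt2 was at 1.53 and 1.28 CPM in siControl C2C12 cells at day 3 and at 0.159 and 0.324 CPM after siTead1/4, which is 65 and 63 counts against 6 and 14. The groups did not overlap, and the log2 fold change was -2.54 ± 0.51 (adjusted p = 0.0496). The call lay at the threshold and was lost with RLE scaling (adjusted p = 0.0507), with a replicate block (adjusted p = 0.0503) and on leaving out any 1 of the 4 libraries (adjusted p 0.108 to 0.251), with log2 fold changes from -3.13 to -2.12. At day 6 the values were 1.85 and 2.87 CPM against 0.605 and 0.598 CPM, again without overlap, and the difference of -1.95 ± 0.47 missed the threshold (adjusted p = 0.264 by edgeR and 0.0457 by DESeq2). At day 0 neither siTead1/4 library held a Ckmt2 read and the controls held 3 and 1.

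Ampd1 was at 2.74 and 4.07 CPM in siControl C2C12 cells at day 3 and at 0.741 and 0.810 CPM after siTead1/4. The silenced libraries both lay below the controls, by -2.16 ± 0.41 on the log2 scale (adjusted p = 0.0378). This call, too, was lost on leaving out any 1 of the 4 libraries (adjusted p 0.0832 to 0.265). At day 6 Ampd1 was at 5.92 and 8.92 CPM against 1.70 and 3.44 CPM, still without overlap, with a difference of -1.51 ± 0.39 that did not pass (adjusted p = 0.289). At day 0 both groups held at most 3 counts per library and no fold is given.

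Ckm at day 3 was at 389 and 387 CPM in the controls and at 130 and 248 CPM after siTead1/4 (-1.07 ± 0.60, adjusted p = 0.485). At day 6 the silenced libraries stood at 205 and 486 CPM, on either side of the controls (412 and 482 CPM), and the difference was -0.36 ± 0.60 (adjusted p = 0.962). Ckb was at 278 and 249 CPM against 119 and 110 CPM at day 3, without overlap (-1.23 ± 0.49, adjusted p = 0.279). At day 6 it was at 141 and 194 CPM against 118 and 268 CPM, with the silenced libraries on either side of the controls (0.21 ± 0.48, adjusted p = 0.966). Ak1 was at 270 and 290 CPM against 143 and 166 CPM at day 3 (-0.89 ± 0.29, adjusted p = 0.177), with no overlap, and at 333 and 354 CPM against 179 and 308 CPM at day 6 (-0.49 ± 0.29, adjusted p = 0.848). In each of these 3 genes at day 6 the second siTead1/4 replicate was the higher.

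At day 0 of C2C12 cells 0 of the 6 tested genes were called, against 0.438% of all genes, and DESeq2 called 1, Ampd3. Of the 6, 2 (Ckmt2 and Ampd3) had an unadjusted p under 0.05, as did 1603 of all 15303 genes tested. Ckmt2 held at most 3 counts per library in both groups. Ampd3 was at 22.7 and 18.1 CPM in the controls and at 11.04 and 8.34 CPM after siTead1/4, without overlap, a log2 fold change of -1.07 ± 0.25 (edgeR adjusted p = 0.107, DESeq2 adjusted p = 0.00579). Ampd3 at day 3 was at 0.05 ± 0.24 and at day 6 at 0.24 ± 0.24. At day 6 of C2C12 cells 0 of 6 genes were called, against 0.0457% of all genes, and DESeq2 called 1, Ckmt2. Of the 6, 2 (Ckmt2 and Ampd1) had an unadjusted p under 0.05, as did 1064 of all 15303 genes tested. The 8 skeletal muscle markers moved beside these values. Their summed level at day 3 was 15135 and 14187 CPM in the controls and 6549 and 10119 CPM after siTead1/4, with a median log2 fold change of -0.78, 0 of 8 called by edgeR and 0 at an unadjusted p under 0.05. At day 6 the sum was 18031 and 17178 CPM against 9722 and 17172 CPM, so that the first siTead1/4 replicate was the lower in these markers as it was in Ckm, Ckb, Ak1 and Ampd1. Of 4 tested fibroblast markers 0 were called by edgeR at day 3 and 2 (Dcn and Lum) had an unadjusted p under 0.05, with a median log2 fold change of -1.43 and a summed level of 388 and 342 CPM in the controls against 438 and 119 CPM. The part of these marker shifts in the values of the 6 genes was not tested.

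In PMs the genes called after siTead1/4 were Ckmt1, which rose at day 0, and Ckmt2, which fell at day 3. Ckm, Ak1 and Ampd3 had log2 fold changes between -0.30 and 0.59 at the 3 days, Ckb between 0.44 and 0.78 and Ampd1 between -0.07 and 0.64, and none of these passed the test. At day 0, 1 of 7 genes was called, against 2.6% of all genes, and at day 3, 1 of 7, against 3.3%.

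Ckmt2 was at 142 and 197 CPM in siControl PMs at day 3 and at 81.4 and 76.5 CPM after siTead1/4. The silenced libraries were both lower, with a log2 fold change of -1.11 ± 0.25 (adjusted p = 0.0264). The call was lost on leaving out any 1 of the 4 libraries (adjusted p 0.0502 to 0.139). At day 6 Ckmt2 was at 91.3 and 69.3 CPM against 37.7 and 31.9 CPM, with no overlap, and the log2 fold change of -1.20 ± 0.26 missed the threshold by edgeR without a replicate block (adjusted p = 0.0535) and passed it with the block (adjusted p = 0.012) and by DESeq2 (adjusted p = 0.000532). At day 0 its values were 12.8 and 8.62 CPM against 12.9 and 7.76 CPM, and the groups overlapped.

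Ckmt1 in PMs at day 0 held 9 and 8 counts in the controls and 35 and 29 after siTead1/4, or 0.191 and 0.225 CPM against 0.823 and 0.573 CPM. The groups did not overlap, and the log2 fold change was 1.73 ± 0.41 (adjusted p = 0.0342). At these counts DESeq2 gave no adjusted p, and leaving out any 1 of the 4 libraries ended the call (adjusted p 0.0822 to 0.226). At day 3 Ckmt1 held 3 and 2 counts against 5 and 7, a ratio of 2.08 with a 95% counting interval of 0.682 to 7.54.

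Ckm was at 2231 and 1624 CPM in siControl PMs at day 3 and at 2244 and 2197 CPM after siTead1/4, and at 1477 and 1020 CPM against 1459 and 1051 CPM at day 6. The groups overlapped at both days, and the differences were 0.20 ± 0.29 (adjusted p = 0.758) and 0.01 ± 0.29 (adjusted p = 0.997). Ak1 likewise overlapped at both days, with differences of -0.07 ± 0.15 and -0.03 ± 0.15. Ckb was higher in every siTead1/4 library than in every siControl library of PMs at each day, at 184 and 242 CPM against 122 and 164 CPM at day 0, 338 and 385 CPM against 303 and 227 CPM at day 3, and 243 and 329 CPM against 138 and 196 CPM at day 6. None of these differences of Ckb passed the edgeR test. They were 0.57 ± 0.23 (adjusted p = 0.177), 0.44 ± 0.23 (adjusted p = 0.303) and 0.78 ± 0.23 (adjusted p = 0.183). How many of all genes were apart in this way at each day was not counted. Ampd1 was at 130 and 102 CPM against 209 and 155 CPM at day 3, without overlap (0.64 ± 0.28, adjusted p = 0.204), and overlapped at day 6. At day 6, 0 of 7 genes were called, against 0.743% of all genes, and DESeq2 called 1, Ckmt2. Of the 7, 3 (Ckb, Ckmt1 and Ckmt2) had an unadjusted p under 0.05, as did 1914 of all 16144 genes tested. Ckmt1 held at most 3 counts per library in both groups.

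**Figure D3:**
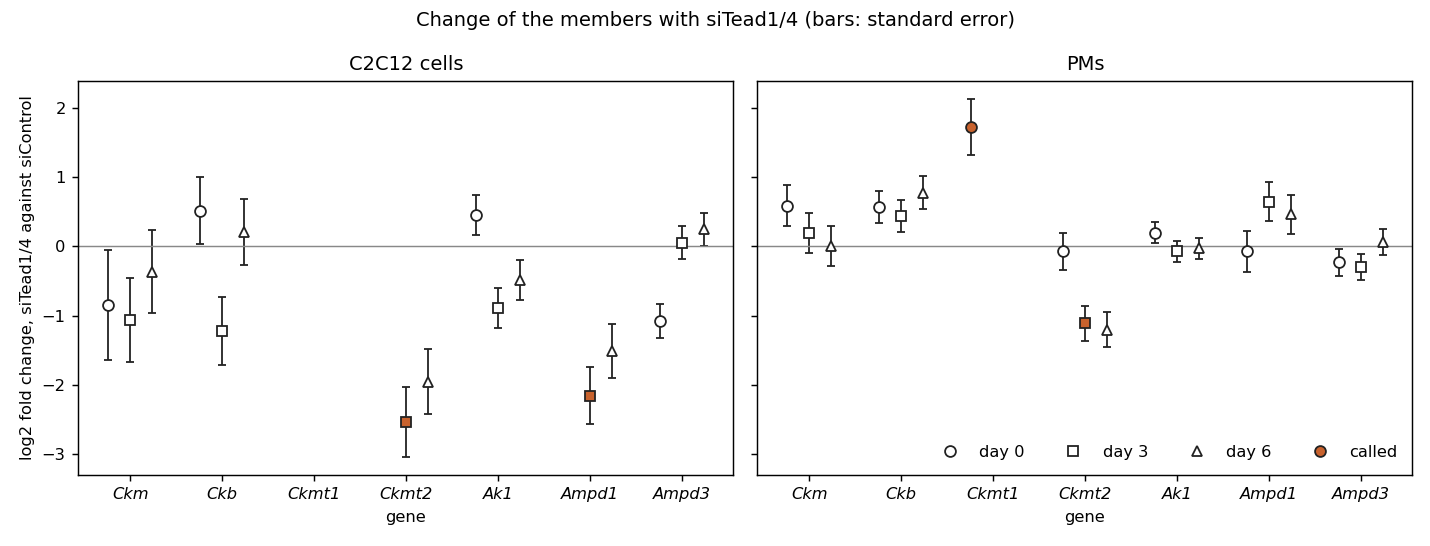
Log2 fold change of siTead1/4 against siControl at each day for each gene, in C2C12 cells and PMs, with bars of 1 SE. Genes not tested or with at most 3 counts per library in a group are not drawn, which leaves Ckmt1 only in PMs at day 0. Ckmt2 lies below 0 in both cell types at days 3 and 6, and Ampd1 lies below 0 in C2C12 cells and above 0 in PMs on those days.

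Beside these PM values, the 8 skeletal muscle markers had median log2 fold changes of 0.01, -0.04 and 0.07 at days 0, 3 and 6. Of these markers 0 were called by edgeR at any day, and 0, 3 and 0 had an unadjusted p under 0.05. Over all 16144 genes tested, 3756, 3668 and 1914 had such a p at those days. Of the 5 fibroblast markers, 2 (Dcn and Lum) were called lower at day 6, with a median of -1.26 over the list, while the summed level was 3000 and 1896 CPM in the controls and 2540 and 1683 CPM after siTead1/4 and overlapped. The part of these markers in the values of Ckmt2 and Ckb at day 6 was not tested.

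Whether siTead1/4 acted unlike in the 2 cell types was tested as the effect in PMs minus the effect in C2C12 cells. Ampd1 was the gene whose effect differed at day 3. It fell in C2C12 cells and had a higher value in PMs, and the difference of the log2 fold changes was 2.78 ± 0.50 (edgeR adjusted p = 0.0122). It was 1 of 7 genes called at that day, against 1.25% of all genes. The call was kept in 5 of the 8 fits that left out 1 library and was lost without the first siTead1/4 PM replicate (adjusted p = 0.0521), the second siControl PM replicate (0.0602) or the second siControl C2C12 replicate (0.0716), with differences of 2.47 to 3.04 over the 8 fits.

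The effect on Ckmt2 at day 3 was called in both cell types, and its difference of 1.40 ± 0.53 between them did not pass (adjusted p = 0.248). Ckb had a difference of 1.65 ± 0.58 (adjusted p = 0.202), Ckm of 1.24 ± 0.71 (adjusted p = 0.505) and Ak1 of 0.80 ± 0.34 (adjusted p = 0.308). At day 0, 0 of 7 genes were called by edgeR or DESeq2, against 0.00591% of all genes, and 1, Ampd3, had an unadjusted p under 0.05 (0.84 ± 0.32, adjusted p = 1). At day 6, 0 of 7 were called, against 0.0354% of all genes. The 1 with an unadjusted p under 0.05 was Ampd1 (1.97 ± 0.46, edgeR adjusted p = 0.23), which DESeq2 called (adjusted p = 0.0336). Over all 16926 genes, 725 had an unadjusted p under 0.05 at day 0 and 916 at day 6.

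Within each library the isoforms were also set against each other as shares of their summed RPKM, which no common scaling of a library can change. These shares carry no test, since an exact permutation test of 2 against 2 libraries cannot give a two-sided p under 0.333. The share of Ckm in the sum of Ckm and Ckb in siControl C2C12 cells was 6.03% and 1.20% at day 0, then 59.3% and 61.9% at day 3, then 75.3% and 72.2% at day 6. It stood higher in PMs from the start, at 41.8% and 25.5%, then 88.5% and 88.2%, then 91.8% and 84.5%. After siTead1/4 it was 53.3% and 70.2% in C2C12 cells at day 3, on either side of the control, and 64.5% and 65.5% at day 6, below it. In PMs after siTead1/4 it was 87.4% and 85.6% at day 3, below the control, and 86.2% and 77.0% at day 6, overlapping it.

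The share of Ampd1 in the sum of Ampd1, Ampd2 and Ampd3 was 7.36% and 10.5% in siControl C2C12 cells at day 3 and 14.3% and 21.6% at day 6, against 2.38% and 1.62%, then 4.61% and 8.99%, after siTead1/4. In C2C12 cells the silenced libraries were below the controls on both days. In PMs the share was 75.0% and 71.4% at day 3 in the controls and 85.2% and 78.9% after siTead1/4, where the silenced libraries were above. At day 6 the PM shares were 69.2% and 59.9% in the controls and 78.0% and 63.9% after siTead1/4 and overlapped. The share of Ckmt2 among the 4 creatine kinases was 5.08% and 9.24% in siControl PMs at day 3 and 2.93% and 2.76% after siTead1/4, and 5.12% and 5.18% against 2.08% and 2.18% at day 6. In siControl C2C12 cells it did not exceed 0.408% at any day.

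**Figure D4:**
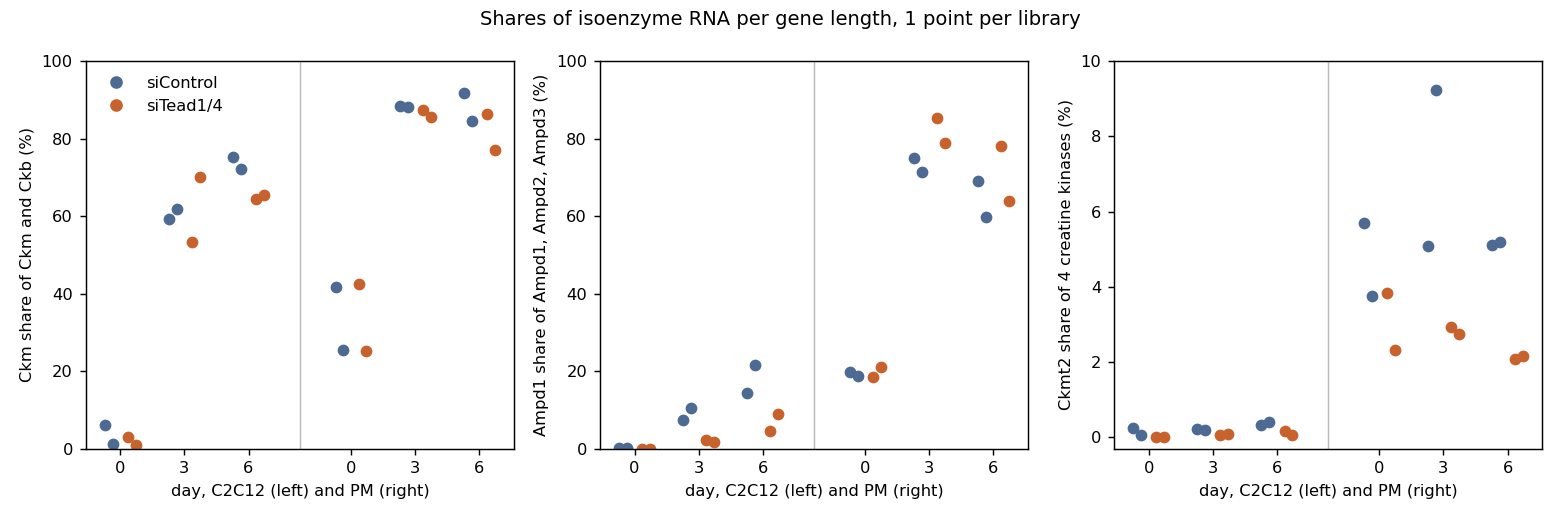
Share of Ckm in Ckm and Ckb, of Ampd1 in the 3 AMP deaminases and of Ckmt2 in the 4 creatine kinases, in percent of summed RPKM, for each library by cell type, siRNA and day. Points are single libraries. At days 3 and 6 the Ckm share runs from 84.5% to 91.8% in siControl PMs and from 59.3% to 75.3% in siControl C2C12 cells.

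A list of 36 further genes covered creatine synthesis and uptake, other adenylate kinases, the purine nucleotide cycle, handling of AMP, adenosine and IMP, ADP/ATP and phosphate carriers with porins, and AMP-activated kinase. After siTead1/4 in C2C12 cells 0, 1 and 0 of the 34 tested genes were called at days 0, 3 and 6, against 0.438%, 1.27% and 0.0457% of all genes. In PMs 1, 2 and 0 of 35 were called, against 2.6%, 3.3% and 0.743%, so that these counts are near the background. Gatm, which makes the creatine precursor guanidinoacetate, fell in C2C12 cells at day 3 from 296 and 248 CPM to 92.2 and 103 CPM, a log2 fold change of -1.50 ± 0.23 (adjusted p = 0.017). Ak4, a mitochondrial adenylate kinase, fell in PMs at day 0 from 22.4 and 13.1 CPM to 8.13 and 6.78 CPM (-1.27 ± 0.24, adjusted p = 0.0125) and at day 3 from 12.7 and 16.1 CPM to 6.07 and 5.53 CPM (-1.32 ± 0.25, adjusted p = 0.0107). In C2C12 cells, where Ak4 was not called, it was at 30.1 and 30.0 CPM against 7.61 and 9.07 CPM after siTead1/4 at day 0. At day 3 its C2C12 values went the other way, at 7.29 and 13.7 CPM against 14.8 and 19.0 CPM. Ak8, another adenylate kinase, rose in PMs at day 3 from 0.449 and 0.202 CPM to 1.22 and 1.44 CPM (2.03 ± 0.43, adjusted p = 0.0203). That is 16 and 8 counts against 57 and 58. In each of these called comparisons the silenced and control libraries did not overlap. The genes were named because they were called, so this adds no support. How these calls fare with a library left out was not tested.

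During siControl differentiation the same list moved both ways. In C2C12 cells 6 of 34 genes rose and 6 fell by day 3, and 7 rose and 7 fell by day 6, where 28.7% and 31.1% of all genes were called. In PMs 8 of 35 rose and 7 fell by day 3, and 7 rose and 8 fell by day 6, where 32.3% and 35.5% of all genes were called. The median log2 fold change of the list at day 3 was -0.26 in C2C12 cells and -0.025 in PMs. Over the members it was 4.00 for the 6 tested in C2C12 cells and 1.93 for the 7 in PMs. Over all genes it was -0.014 and 0.015. The C2C12 value of the members lies midway between the fitted values of Ckb (3.17) and Ckmt2 (4.83). That of Ckmt2 rests on 3 and 1 counts at day 0, too few for it to be read by itself. In siControl PMs against C2C12 cells 4, 8 and 6 of the 35 genes were higher and 2, 2 and 1 lower at days 0, 3 and 6, where 26.8%, 29.8% and 24.9% of all genes were called.

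The genes with the profile most like each member over the 24 libraries were ranked by the root mean square difference of centred log2 CPM among 16926 genes, a description with no test. Ckm was nearest to the fast troponin genes Tnnc2 (0.54) and Tnnt3 (0.60) and to Art1 (0.61), set against a spread of 3.82 in its own profile. Ckmt2 was nearest to Ampd1 (0.85), then Rai2 (0.90) and Sypl2 (0.91), with an own spread of 3.81. Ampd1 was nearest to Abcc9 (0.74), Asb2 (0.75) and 1810041L15Rik (0.76), with an own spread of 3.64. The flatter profiles had Ccnd3 (0.43), Chrna1 (0.44) and Ppp1r14c (0.46) nearest to Ckb, Ehbp1l1 (0.27), Orai1 (0.29) and Amigo1 (0.29) nearest to Ak1, and Sgms1 (0.31), BC024659 (0.32) and Dnase1l1 (0.34) nearest to Ampd3, where the own spreads were 1.15, 1.08 and 0.83. The libraries share cell type and day, which alone orders many genes alike.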

How the data were processed

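Poly-A RNA of 24 libraries, 2 biological replicates in each of 12 groups, was sequenced. Reads were aligned by the authors to build mm9 (NCBIM37), and 1 table of raw counts per gene was deposited. The submitters' processing notes name CASAVA 1.8.2, TopHat2 2.0.10, Bowtie2 2.1.0, HTSeq 0.6.1 and DESeq2 1.8.1, and the strand and overlap settings of the counting are not given in the sources used here. Its 36 columns for 12 unlisted libraries were not used, nor were the authors' normalized values.

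The deposited counts went into edgeR 4.0.16 under R 4.3.3 (filterByExpr, TMM, quasi-likelihood test, Benjamini-Hochberg over all tested genes), with calls as defined in the report. Each cell type was fitted on its 12 libraries with 1 mean per group, testing 15303 genes in C2C12 cells and 16144 in PMs. Comparisons between cell types used all 24 libraries and 16926 genes. Of the 7 genes, Ckmt1 did not pass the filter in C2C12 cells. The fits were also run on simulated data with known changes, set in genes with a mean above 1 CPM. That run did not test how changes in genes at lower levels are recovered, and no result here rests on it. A group with at most 3 counts per library was compared by the ratio of CPM with a 95% exact counting interval, and with 2 such groups no fold is given. Median totals were 40147146 counts in C2C12 cells and 39204772 in PMs, and each group's precision rests on its 2 libraries. No 2 replicates were identical (chi-square per gene of 18.0 to 314).

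Alternatives were DESeq2 1.42.0, RLE scaling, no filter on low counts, a replicate block, all 24 libraries in 1 fit and leaving out each library. The text names the 7 genes, Tead1, Tead4, every gene of a 36-gene pathway list called after siTead1/4, the 3 genes most alike to each member other than Ckmt1, and marker genes. The members and lists were chosen with earlier results of these data known. Promoters came from RefSeq (GRCm38.p6).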

Additional observations from a re-analysis of the deposited data

Results flagged for a closer look

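The effect of siTead1/4 on Ampd1 at day 3 differed between PMs and C2C12 cells by 2.78 ± 0.50 (SE) on the log2 scale (edgeR interaction test, adjusted p = 0.0122), which is what singled it out. Both silenced C2C12 libraries (0.741 and 0.810 CPM) lay below their controls (2.74 and 4.07 CPM), and both silenced PM libraries (209 and 155 CPM) lay above theirs (130 and 102 CPM). The cause of this difference was not tested.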

How the results depend on the processing

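Of 43 calls of the 7 genes over all comparisons, 32 were made in every alternative run. Those that were not were the siTead1/4 calls (Ckmt1, Ckmt2 and Ampd1), the fall of Ckmt2 from day 3 to day 6 in PMs, the Ckmt1 calls, the difference in the Ampd1 effect at day 3, and Ckm between the cell types at day 6. With no filter on low counts the genes called after siTead1/4 numbered 1, 4 and 2 in C2C12 cells at days 0, 3 and 6, 1 in PMs at day 6, and 3 and 1 for the difference between cell types at days 3 and 6. With RLE scaling 1 was called in C2C12 cells at day 3. DESeq2 called 1 in C2C12 cells at day 0 and at day 6, 0 in PMs at day 0, 1 in PMs at day 6 and 1 for the difference at day 6. With all 24 libraries in 1 fit, 1 was called in C2C12 cells at days 0 and 6 each, and 0 after siTead1/4 in PMs at day 3 and 0 in PMs from day 3 to day 6. Leaving out 1 library, counts of called genes were 0 to 0 in C2C12 cells at day 3, in PMs at days 0 and 3 and in PMs from day 3 to day 6, and 0 to 1 for the difference at day 3. Why these counts moved was not tested.

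Replicate numbers are shared between groups, with no label that ties them to a culture or day. Replicates of the same number deviated together with correlations of -0.13, 0.090 and 0.47 at days 0, 3 and 6 in C2C12 cells and 0.38, 0.41 and 0.50 in PMs. With a replicate block 1 gene (Ampd1) was called in C2C12 cells at day 3, 1 (Ckmt2) in PMs at day 6 and 1 (Ampd1) for the difference at day 6. A pairing crossed in C2C12 cells at day 0, chosen after seeing the data, called 0 of the 7 genes and 120 of all genes, against 82 with the block and 67 without.

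Over all genes, calls after siTead1/4 in C2C12 cells at days 0, 3 and 6 numbered 67, 195 and 7 in the fits of the report, 255, 604 and 142 by DESeq2, 480, 1055 and 387 with no filter, and 245, 690 and 88 with all 24 libraries in 1 fit. At day 6 the block gave 12. In PMs they numbered 420, 532 and 120 in the report, 204, 312 and 60 with all 24 libraries, and at day 6 290 with the block, 224 by DESeq2 and 335 with no filter. At day 3 no filter gave 804. From day 3 to day 6, PMs had 452 calls, 732 with the block, 709 with no filter and 164 with all 24 libraries, and C2C12 cells had 0, 19 by DESeq2 and 102 with no filter. For the difference between cell types the counts were 1, 212 and 6, and 5, 327 and 34 with the block, 32, 494 and 60 by DESeq2, and 88, 853 and 146 with no filter.

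Reversals touched only differences that were not called. Ckb between PMs and C2C12 cells was -0.015 at day 3 with no filter, and at day 6 0.0069 with RLE scaling, 0.078 with the replicate block and 0.0041 by DESeq2. With each library left out in turn, log2 fold changes after siTead1/4 in C2C12 cells ranged from -1.74 to 1.07 (Ckm) and -0.54 to 1.11 (Ckb) at day 0, from -0.0081 to 0.13 (Ampd3) at day 3, and from -1.13 to 0.13 (Ckm) and -0.51 to 0.69 (Ckb) at day 6. In PMs they ranged from -0.48 to 0.26 (Ckmt2), -0.20 to 0.039 (Ampd1) and -0.54 to 0.020 (Ampd3) at day 0, from -0.018 to 0.44 (Ckm) and -0.25 to 0.14 (Ak1) at day 3, and from -0.24 to 0.30 (Ckm), -0.10 to 0.048 (Ak1), -0.058 to 0.84 (Ampd1) and -0.035 to 0.16 (Ampd3) at day 6. The difference between cell types ranged from -0.47 to 2.34 (Ckm), -0.53 to 1.11 (Ckb) and -0.55 to 0.16 (Ak1) at day 0 and from -0.14 to 1.12 (Ckm) and -0.47 to 0.030 (Ampd3) at day 6. Ampd3 between days 3 and 6 in C2C12 cells ranged from -0.18 to 0.34, Ckb between days 0 and 6 in PMs from -0.12 to 0.39, and Ckb between the cell types from -0.24 to 0.19 at day 3 and -0.30 to 0.23 at day 6. Shares taken from plain counts, chosen after seeing the data, moved 22 of 48 group means by over 1 SD, and levels on RLE scaling were 0.978 to 1.02 times those given. Depth limits Ckmt1 throughout and Ckmt2 and Ampd1 in C2C12 cells at day 0.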
